A study of Homo sapiens with 24 samples.

Results

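The nuclear genes for the subunits of the mitochondrial respiratory chain were followed in the human Ewing sarcoma line ES8 and in ES8-1F2, a line derived from it by CRISPR/Cas9 knockout of SLFN11. Genes were taken by their symbol in the array annotation: NDUFA, NDUFB, NDUFC, NDUFS and NDUFV subunits for complex I, SDH genes for complex II, UQCR genes and CYC1 for complex III, COX4 to COX8 genes for complex IV, and ATP5F1, ATP5M and ATP5P genes for complex V. This gave 73 of the 17687 genes measured, of which 29 belong to complex I, 3 to complex II, 9 to complex III, 16 to complex IV and 16 to complex V. The rule goes by symbol, and it was set with earlier results of these data known. A few genes of these families are not analysed here.

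Both lines grew in DMEM/F12 with glutamine and fetal bovine serum and were exposed to gamma radiation at 2 Gy or left at 0 Gy, with RNA taken after 4 h or 24 h. The parental and knockout cells at each dose and time form 8 groups of 3 Affymetrix arrays, 24 arrays in all. The knockout is a single derivative line, so the loss of SLFN11 and other differences between that line and its parent cannot be told apart. The labels do not say if the replicates came from separate cultures. The p-values therefore reflect the spread among these arrays alone, and that spread may be technical. In bulk RNA, fewer cells with a transcript and less RNA per cell cannot be told apart either.

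Values are log2 signals per probe set, and differences are given as knockout minus parental, 2 Gy minus 0 Gy or 24 h minus 4 h, with their standard error (SE). SLFN11 lay between 8.03 and 8.63 on the parental arrays and between 6.33 and 7.07 on the knockout arrays. All 7 measured markers of Ewing sarcoma cells were above background on every array of both lines, as were 3 of 5 stroma, 2 of 5 epithelial, 2 of 5 endothelial and 0 of 4 blood markers. Each blood marker was above it on some arrays. Background was the 95th percentile of 612 negative control probe sets on each array, at 3.46 to 3.81. Of the respiratory chain genes, 71 of 73 were above it on all 3 arrays of at least 1 group, and 69 on all 24 arrays. The interquartile range of all genes was narrowest, at 3.28 and 3.34, on replicate 2 of the parental 2 Gy cells at 4 h and at 24 h.

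The respiratory chain sits in the inner mitochondrial membrane. Complex I takes electrons from NADH and complex II from succinate, ubiquinone carries them to complex III, cytochrome c carries them on to complex IV, and oxygen receives them there. Complexes I, III and IV pump protons, and complex V, the ATP synthase, lets them return through a rotating ring of c subunits and makes ATP. A few core subunits are encoded in mitochondrial DNA, and the genes described here are in the nucleus, where factors such as NRF1 and ETS family proteins are known to act on many of their promoters.

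The promoters of 4 example genes are shown, whose parental and knockout arrays were apart in at least 3 of the 4 conditions. How many of all genes were apart in this way is not given. ATP5MC1 and ATP5MC2, which encode the c subunit of complex V, were lower in knockout cells. NDUFV3 of complex I and UQCR10 of complex III were higher. Each sequence is the 250 bases before the start of the gene from RefSeq (GRCh38.p14), 5′ to 3′ on the strand of the gene: chr17:48892537-48892786 (+) for ATP5MC1, chr12:53676084-53676333 (-) for ATP5MC2, chr21:42893059-42893308 (+) for NDUFV3 and chr22:29767119-29767368 (+) for UQCR10. Capitals mark the NRF1 core GCATGCG on either strand. In ATP5MC2 a match on each strand overlaps the other, and the other 3 hold none.
ATP5MC1: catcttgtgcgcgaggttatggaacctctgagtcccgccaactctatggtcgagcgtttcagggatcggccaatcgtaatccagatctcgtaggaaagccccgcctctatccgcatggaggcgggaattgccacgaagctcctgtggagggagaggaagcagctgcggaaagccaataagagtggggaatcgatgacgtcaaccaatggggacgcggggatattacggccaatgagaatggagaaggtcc
ATP5MC2: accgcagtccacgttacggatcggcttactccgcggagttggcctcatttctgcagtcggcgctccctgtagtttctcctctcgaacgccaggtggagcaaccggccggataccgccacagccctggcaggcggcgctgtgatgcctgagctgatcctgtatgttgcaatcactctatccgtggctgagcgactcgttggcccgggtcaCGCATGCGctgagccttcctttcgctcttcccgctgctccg
NDUFV3: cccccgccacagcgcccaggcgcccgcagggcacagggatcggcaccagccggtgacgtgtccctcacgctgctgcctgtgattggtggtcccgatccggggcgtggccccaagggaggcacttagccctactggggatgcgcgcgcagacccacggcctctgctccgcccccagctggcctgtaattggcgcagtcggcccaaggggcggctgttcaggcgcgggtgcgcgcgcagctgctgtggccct
UQCR10: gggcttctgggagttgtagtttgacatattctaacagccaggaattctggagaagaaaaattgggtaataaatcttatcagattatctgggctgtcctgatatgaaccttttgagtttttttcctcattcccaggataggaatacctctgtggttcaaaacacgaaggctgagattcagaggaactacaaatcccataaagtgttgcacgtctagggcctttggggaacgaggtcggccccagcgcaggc

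Over windows from 250 bases before to 50 after the start, 58 of the 73 genes matched a RefSeq promoter by gene identifier. The NRF1 core, GCATGCG on either strand, was in 12 of these 58 promoters (20.7%), against 4.13% of all 27305 promoters and 5.16% of the 14250 promoters of genes on the array. The ETS core, CCGGAAG on either strand, was in 16 of 58 (27.6%), against 10.7% and 14.3%. By complex, the NRF1 core was in 5 of 26 promoters of complex I, 1 of 2 of complex II, 0 of 6 of complex III, 2 of 13 of complex IV and 4 of 11 of complex V. The ETS core was in 3 of 26, 1 of 2, 3 of 6, 5 of 13 and 4 of 11 for complexes I to V. Of 13 genes lower and 9 higher between the lines on average, 7 and 8 had a matched promoter, and ATP5MC3 and ATP5F1B had none. The NRF1 core was in 3 of the 7 lower genes (ATP5MC2, ATP5ME and COX6A1), 0 of the 8 higher genes and 9 of 43 others. The ETS core was in 2 of 7, 1 of 8 and 13 of 43. These are counts of letters in a window and say nothing about binding.

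The first question was how the respiratory chain genes differed between the lines. Averaged over the 4 conditions, 9 of 73 were higher and 13 lower in knockout cells at a Benjamini-Hochberg adjusted p below 0.05 (limma over all genes), which is 30.1% of them. Of all genes, 30.4% passed the same test, 15.8% higher and 14.6% lower, so the share was that of the background. The median difference of the 73 genes was -0.03, beside -0.02 for all genes, and 62 of the 73 lay within 0.2 of 0. A difference averaged in this way had a median 95% interval of 0.09 on either side for these genes. With each array centred on its median, the counts were 10 higher and 10 lower.

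**Figure D1:**
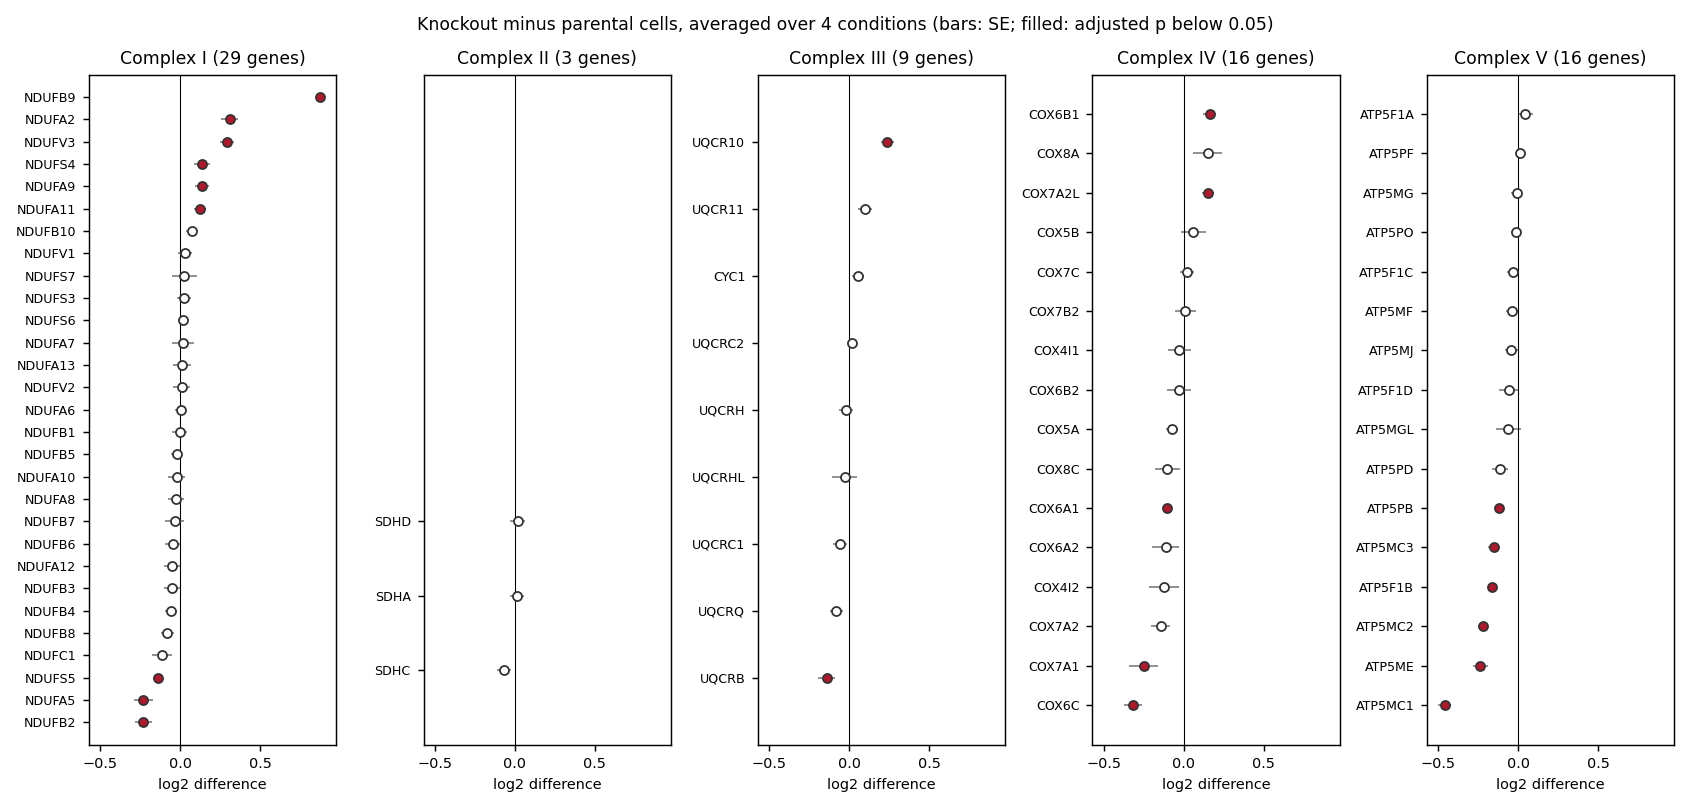
Difference between knockout and parental cells (log2, averaged over the 4 conditions, 12 arrays a line) for each gene, in 1 panel per complex, with bars for the SE and filled points for an adjusted p below 0.05. NDUFB9 lies far to the right at 0.88, ATP5MC1 is lowest at -0.46, and no filled point of complex V lies above 0.

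Among the complexes, complex I had 6 genes higher and 3 lower, complex II 0 of 3 either way, complex III 1 higher and 1 lower, complex IV 2 higher and 3 lower, and complex V 0 higher and 6 lower of 16. The shares called were 31%, 0%, 22.2%, 31.2% and 37.5% for complexes I to V, against 30.4% of all genes. In complex V 14 of 16 differences were below 0 (87.5%, against 55.6% of all genes). Their median was -0.06, beside -0.02 for all genes, and was -0.04 with centred arrays. The medians of complexes I, II, III and IV were 0.0038, 0.01, -0.02 and -0.05. No test of a difference between complexes was made.

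Complex I held the largest difference. NDUFB9, an accessory subunit of its membrane arm, ranged from 10.05 to 10.29 (median 10.21) on the 12 parental arrays and from 10.96 to 11.18 (median 11.09) on the 12 knockout arrays. Every knockout array was above every parental array, which held for 3.22% of all genes. The averaged difference was 0.88 (SE 0.03), a 1.84-fold higher signal (adjusted p = 6.63e-22). It was higher in each condition, by 0.91 at 0 Gy, 4 h, 0.83 at 0 Gy, 24 h, 0.93 at 2 Gy, 4 h and 0.85 at 2 Gy, 24 h. It was the only one of the 73 called higher in all 4, as 3.54% of all genes were.

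NDUFA2 and NDUFV3, accessory subunits of the arm that oxidises NADH, were higher by less. NDUFA2 ran from 7.35 to 7.79 (median 7.57) on parental and from 7.60 to 8.04 (median 7.89) on knockout arrays, a difference of 0.31 (SE 0.05, adjusted p = 1.50e-05). Its groups overlapped at 0 Gy, 24 h and were apart in the other conditions. NDUFV3 ran from 9.27 to 9.68 (median 9.56) and from 9.64 to 10.11 (median 9.81), a difference of 0.29 (SE 0.04, adjusted p = 1.68e-06). For NDUFV3 the 3 knockout arrays were above the 3 parental arrays in each condition, although the lines overlapped when all arrays were pooled. The share of all genes apart in each condition is not given.

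The other higher genes of complex I, named after their values were seen, were NDUFS4 (0.14), NDUFA9 (0.13) and NDUFA11 (0.12), all accessory subunits. The call of NDUFS4 (adjusted p = 0.034) was lost on leaving out any 1 of 12 of the 24 arrays. Lower genes were NDUFB2, an accessory subunit of the membrane arm (-0.23, SE 0.05, adjusted p = 7.69e-04), NDUFA5 of the NADH arm (-0.23, SE 0.06, adjusted p = 0.0035) and NDUFS5 (-0.14, SE 0.03, adjusted p = 3.46e-04). NDUFB2 ranged from 7.14 to 7.31 on parental and from 6.75 to 7.29 on knockout arrays, so the lines overlapped at the top of the knockout range. The 20 remaining genes of complex I passed in neither direction.

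None of the 3 genes measured for complex II, which is also succinate dehydrogenase of the citric acid cycle, passed. SDHA, its flavoprotein, was at 7.87 to 8.10 on parental and 7.86 to 8.14 on knockout arrays, a difference of 0.01 with a 95% interval from -0.08 to 0.10. SDHC, a membrane anchor, differed by -0.07 (-0.16 to 0.02), and SDHD, the other anchor, by 0.02 (-0.08 to 0.11). For the average over the conditions, these intervals leave room for differences of at most 0.16 on the log2 scale in either direction. Intervals in single conditions were wider, as for SDHD at 2 Gy, 24 h (-0.07 to 0.31).

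In complex III, UQCR10, a small accessory subunit, was higher: it lay between 8.0 and 8.39 (median 8.25) on parental and between 8.29 and 8.64 (median 8.49) on knockout arrays. The difference was 0.24 (SE 0.04, adjusted p = 2.81e-05), and the groups were apart in 3 conditions but not at 0 Gy, 24 h. UQCRB, another accessory subunit, was lower by a difference of -0.14 (SE 0.05, adjusted p = 0.036), and lost its call on leaving out any 1 of 12 arrays, or with centred arrays. CYC1, which carries the haem of cytochrome c1, differed by 0.05 (95% interval -0.03 to 0.13). UQCRHL and UQCRH are close copies, and probes for one may read the other.

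In complex IV, COX6C, an accessory subunit, ranged from 8.84 to 9.42 (median 9.30) on parental and from 8.70 to 9.07 (median 8.97) on knockout arrays, a difference of -0.32 (SE 0.06, adjusted p = 2.54e-05). Its 2 lowest parental values, 8.84 and 9.03, were those of the 2 arrays of narrow signal range. COX6A1 differed by -0.10 (adjusted p = 0.010) and lost its call with centred arrays. COX6B1, which faces the intermembrane space, and COX7A2L, which is known to join complexes III and IV, were higher by 0.16 (SE 0.04, adjusted p = 0.0015) and 0.15 (SE 0.04, adjusted p = 0.0021).

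Several complex IV genes are isoforms of particular tissues. COX7A1, the form of heart and skeletal muscle, was at 4.80 to 5.51 on parental and 4.55 to 5.3 on knockout arrays, a difference of -0.25 (SE 0.09, adjusted p = 0.034) that lost its call on leaving out any 1 of 10 arrays, or with centred arrays. COX4I2, COX6A2 and COX8C differed by -0.12, -0.11 and -0.10, and none passed. COX8C was above background on 18 of 24 arrays, COX6B2, a testis form, on 4, and COX7B2 was not well above background on any.

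Complex V held the steadiest lower genes. ATP5MC1, ATP5MC2 and ATP5MC3 encode the same mature c subunit of the rotor ring behind different import sequences. All 3 were lower in knockout cells when averaged over the conditions. ATP5MC1 lay between 11.01 and 11.24 (median 11.12) on parental and between 10.46 and 10.91 (median 10.66) on knockout arrays. ATP5MC2 lay between 10.83 and 11.07 (median 10.94) and between 10.47 and 10.82 (median 10.73). For both, no knockout array reached the lowest parental array, as for 2.43% of all genes.

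ATP5MC1 differed by -0.46 (SE 0.04, adjusted p = 3.75e-11), a 1.38-fold lower signal, and was called lower in all 4 conditions (-0.49, -0.48, -0.42 and -0.45), as 2.84% of all genes were. ATP5MC2 differed by -0.22 (SE 0.03, adjusted p = 4.57e-07) and was called at 0 Gy, 24 h and at 2 Gy, 4 h. ATP5MC3, named after its values were seen, ranged from 8.63 to 8.95 on parental and from 8.49 to 8.80 on knockout arrays, which overlap, with a difference of -0.15 (SE 0.04, adjusted p = 0.0024). It was called only at 0 Gy, 24 h, and at 0 Gy, 4 h it differed by 0.05 (adjusted p = 0.79 in limma).

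**Figure D2:**
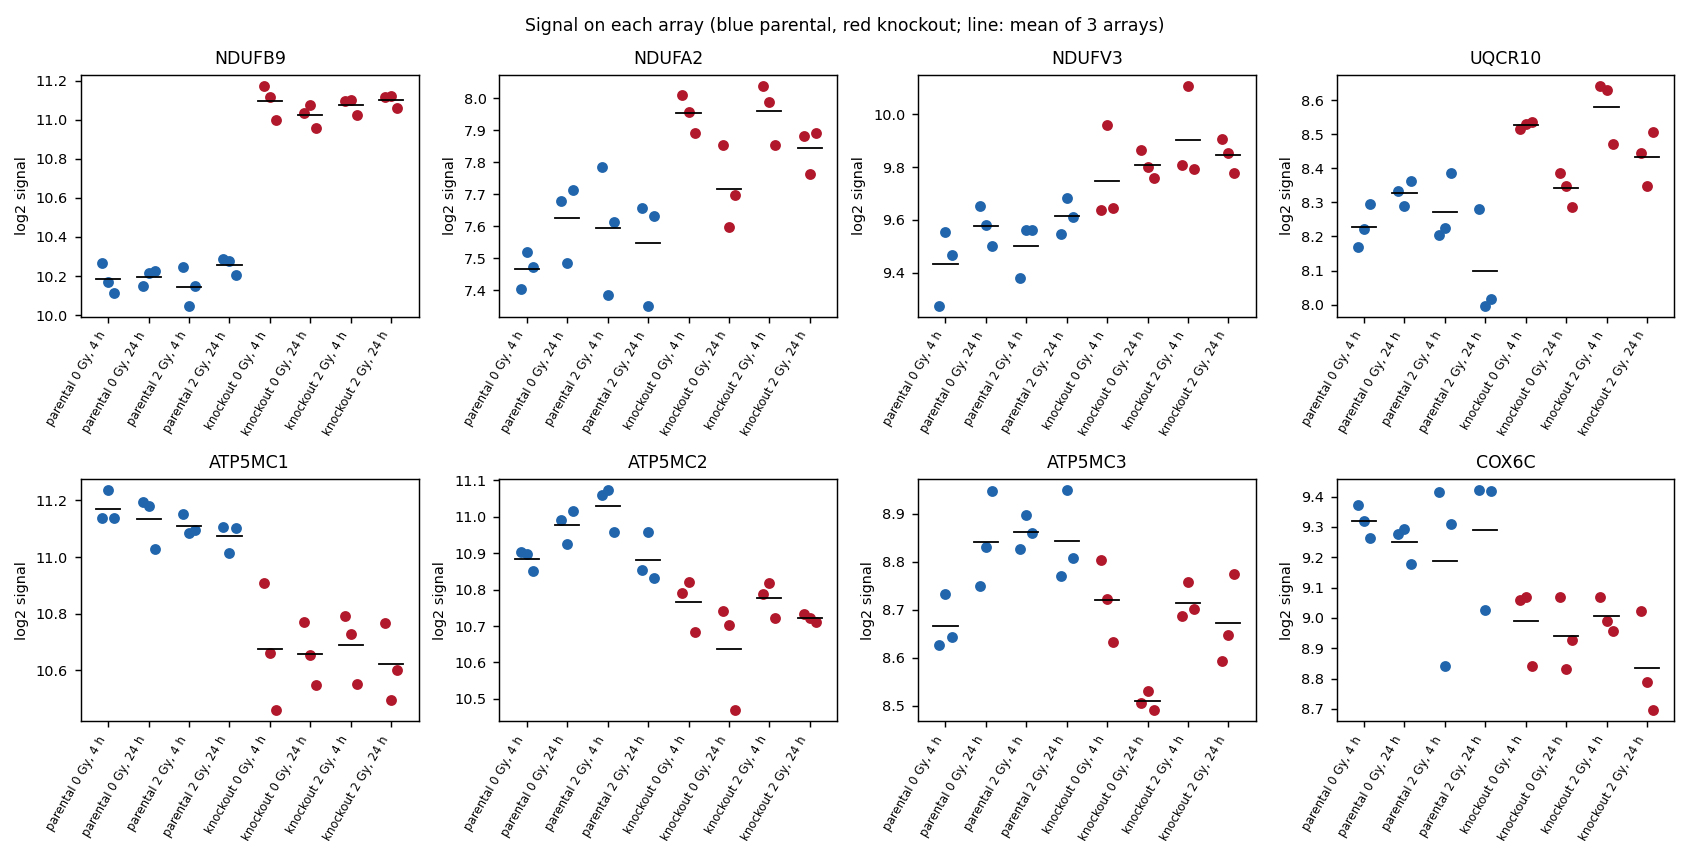
Log2 signal of 8 genes on each of the 24 arrays (blue parental, red knockout, line at the mean of 3 arrays), each panel on its own scale. For NDUFB9 all knockout arrays lie at or above 10.96 and all parental arrays at or below 10.29; for ATP5MC1 the order is reversed, with knockout arrays at or below 10.91 and parental arrays at or above 11.01.

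ATP5ME, subunit e of the membrane part and known for its role in dimers of the synthase, was lower by a difference of -0.24 (SE 0.05, adjusted p = 1.67e-04), with parental arrays at 8.81 to 9.28 and knockout arrays at 8.63 to 9.06. ATP5F1B, the catalytic beta subunit, and ATP5PB of the peripheral stalk were also lower, with differences of -0.16 (SE 0.03, adjusted p = 1.08e-05) and -0.12 (SE 0.03, adjusted p = 5.04e-04). Both were named after their values were seen. In each condition the 3 knockout arrays of ATP5F1B and of ATP5PB were below the 3 parental arrays. Over all 24 arrays the lines overlapped for both genes, and the share of all genes apart in each condition is not given. ATP5F1A, the alpha subunit that pairs with beta, differed by 0.04 (95% interval -0.06 to 0.14). ATP5MGL is a close copy of ATP5MG, and probes may not separate them.

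The second question was whether the line difference was alike at each dose and time. A single comparison of 3 against 3 arrays had a median 95% interval of 0.18 on either side for these genes, so fewer passed than in the average. In unirradiated cells at 4 h, 7 of 73 were higher and 1 lower (background 11.8%, of which 6.27% higher and 5.50% lower), and the median was 0.03. Higher were NDUFB9, NDUFA2, NDUFV3, NDUFA11, UQCR10, COX7A2L and CYC1 (0.24, adjusted p = 0.039), and ATP5MC1 was lower. Without parental replicate 1 there were 5 calls, and with the replicate number as a block, 10 higher and 4 lower.

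Unirradiated cells at 24 h showed the reverse split, with 1 of 73 higher and 9 lower (background 11.6%, of which 6.47% higher and 5.09% lower). The median was -0.09, and 58 of 73 differences (79.5%) were below 0, against 50.7% of all genes. The medians of complexes I to V were -0.09, -0.07, -0.05, -0.09 and -0.15, and in complex V all 16 were below 0 with 5 called. NDUFB9 stood apart as the higher gene. The lower genes were ATP5MC1, ATP5MC2, ATP5MC3, ATP5ME, ATP5F1B, NDUFB2, NDUFS5, UQCRQ and COX7A2. The last 2 were named after their values were seen.

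Of these, ATP5ME was at 9.23, 9.19 and 9.28 on the parental and at 8.88, 8.84 and 8.64 on the knockout arrays, a difference of -0.45 (SE 0.10, adjusted p = 9.34e-04). ATP5MC3 was at 8.75, 8.83 and 8.95 against 8.51, 8.53 and 8.49, a difference of -0.33 (SE 0.08, adjusted p = 0.0023). In both genes the groups were apart by more than either group's own range. COX7A2, a complex IV subunit, was at 7.92, 7.93 and 7.96 against 7.82, 7.58 and 7.26, a difference of -0.38 (SE 0.11, adjusted p = 0.023), which was -0.24 without knockout replicate 3. UQCRQ of complex III differed by -0.24 (adjusted p = 0.039).

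Leaving out parental replicate 1, parental replicate 3 or knockout replicate 3 left 6 of these 10 calls. UQCRQ lost its call on leaving out any of 5 of the 6 arrays, COX7A2 and NDUFB2 any of 4. NDUFB9, ATP5MC1, ATP5MC2, ATP5MC3 and ATP5ME were called in all 6 of these repeats. On knockout replicate 3 the median of all 73 genes was the lowest of any array, at -0.109 from the genes' means over all arrays, and that of complex IV was -0.18. The median over all genes on that array was 0.0050.

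**Figure D3:**
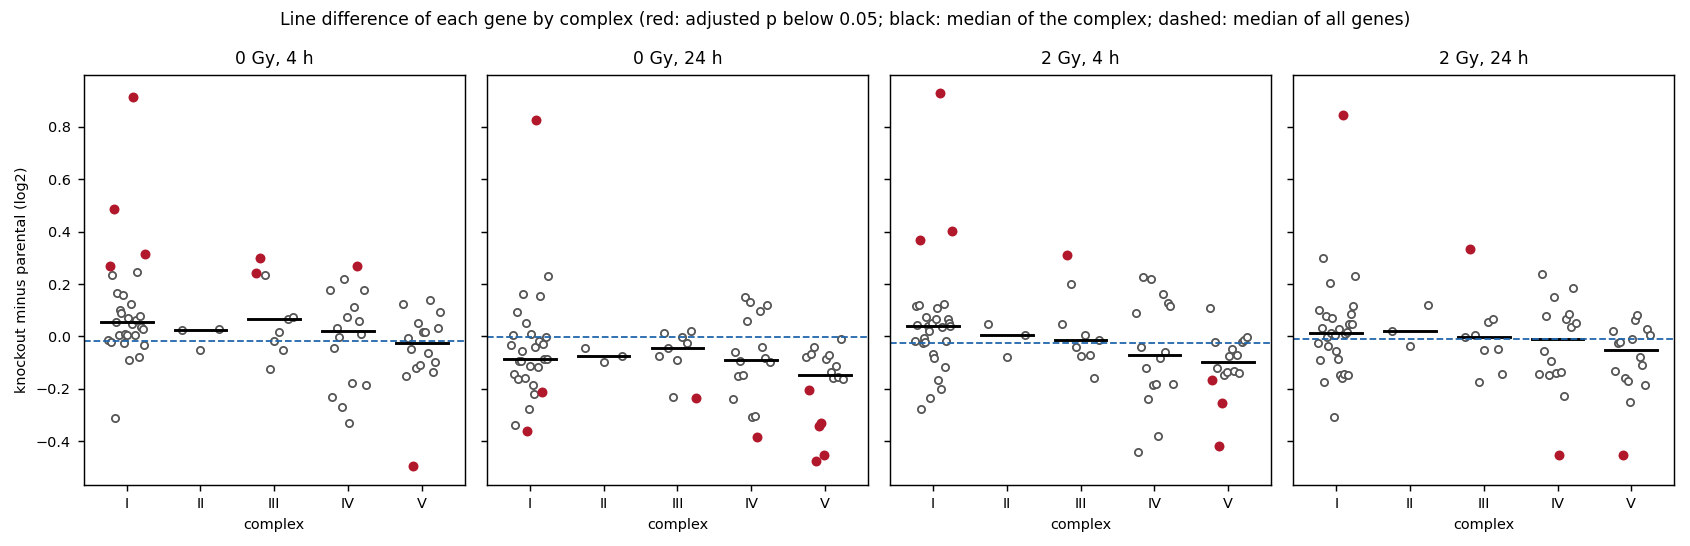
Line difference (log2) of each gene at each dose and time, by complex, with red points for an adjusted p below 0.05, a black line at the median of the complex and a dashed line at the median of all genes. At 0 Gy, 24 h all 16 points of complex V lie below 0, with a median of -0.15.

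In irradiated cells at 4 h, 4 of 73 were higher and 3 lower (background 12.0%, of which 6.87% higher and 5.13% lower), and the median was -0.02. NDUFB9, NDUFA2 (0.37), NDUFV3 (0.40) and UQCR10 (0.31) were higher, and ATP5MC1, ATP5MC2 (-0.26) and ATP5F1B (-0.17) lower. With centred arrays the split was 5 higher and 2 lower. Without knockout replicate 1 or 2, 4 calls were left, and without parental replicate 2, of narrow signal range, the median was -0.058.

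In irradiated cells at 24 h, 2 of 73 were higher and 2 lower (background 12.0%, of which 6.29% higher and 5.68% lower), and the median was -8.58e-04. UQCR10, at 8.28, 8.0 and 8.02 on the parental and 8.45, 8.35 and 8.51 on the knockout arrays, was higher by 0.33 (SE 0.08, adjusted p = 0.0057). COX6C, at 9.42, 9.03 and 9.42 against 9.02, 8.79 and 8.70, differed by -0.45 (SE 0.11, adjusted p = 0.0046). The groups were apart for both genes, narrowly so for COX6C. With the replicate number as a block, 5 were higher and 5 lower.

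Over the 4 conditions, 17 of 73 genes were called in at least 1, and 48 neither there nor in the average. The sign was positive in all 4 for 11 genes and negative in all 4 for 19. The share over all genes is not given for these counts, so they are no result about these genes in particular. The difference of the line difference between the times was tested for each gene, a comparison added after the data were seen. At 0 Gy, 0 of 73 passed (limma, background 0%), 15 had an unadjusted p below 0.05 (3.50% of all genes), and 62 of 73 (84.9%) were below 0 against 47.2% of all genes, with a median of -0.10. At 2 Gy, 0 of 73 passed (background 0%), 1 had an unadjusted p below 0.05 (3.55%), and 39 were below 0 (53.4%, against 49.2% of all genes). The first of these uses the same 12 arrays as both unirradiated line differences and is not independent of them.

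NDUFA13, a complex I subunit named after its values were seen, had one of the larger changes. At 0 Gy, 4 h it was at 6.41, 6.37 and 6.61 on the parental and at 6.64, 6.66 and 6.80 on the knockout arrays. At 0 Gy, 24 h it was at 6.71, 6.71 and 6.74 against 6.42, 6.42 and 6.30. Knockout arrays were thus above parental arrays at 4 h and below them at 24 h, without overlap at either time. The share of all genes with such a reversal is not given. The change of the difference was -0.57 (SE 0.17, unadjusted p = 0.0015, adjusted p = 1.00 over all genes in limma), so it did not pass. Other changes of at least 0.38 in size were those of COX7A2 (-0.50), COX4I1 (-0.42), NDUFA2 (-0.40) and ATP5MC3 (-0.38), and, in the other direction, COX6A2 (0.42).

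**Figure D4:**
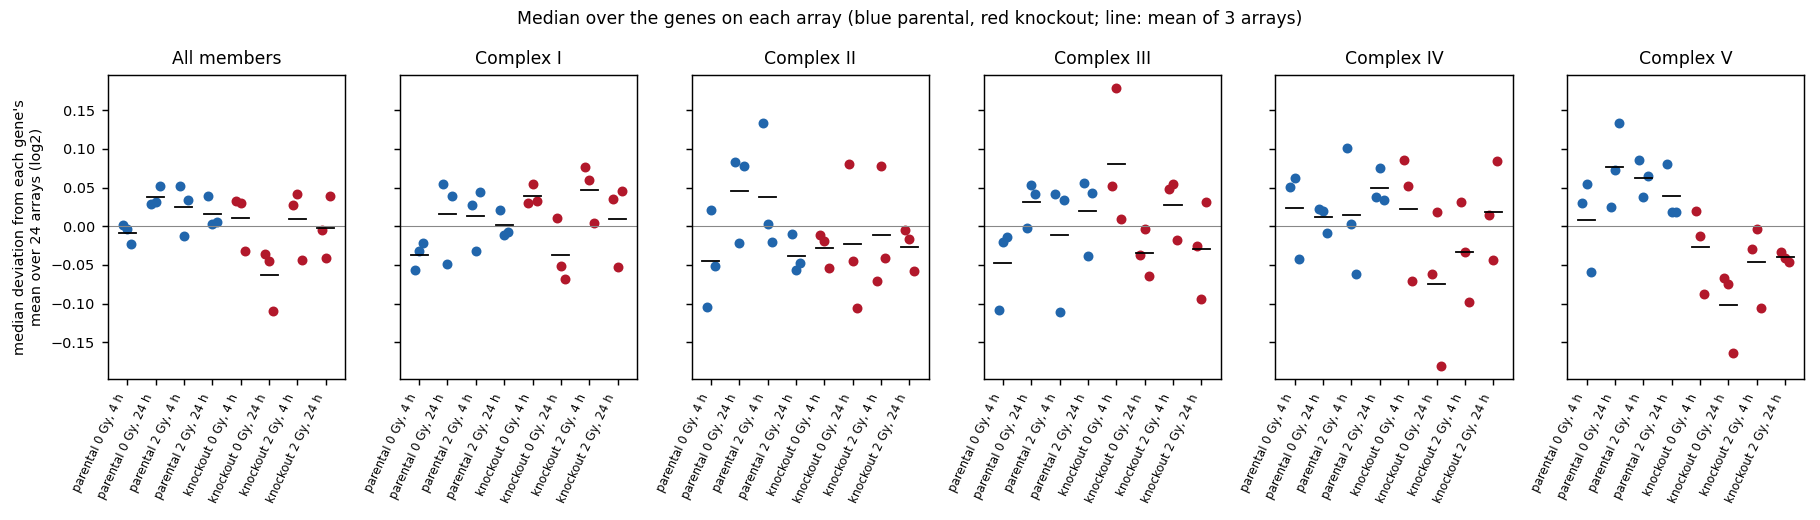
Median over the genes of the deviation from each gene's mean over 24 arrays (log2), for all 73 genes and for each complex, on each array (blue parental, red knockout, line at the mean of 3 arrays). The group means of all 73 genes are highest for parental cells at 0 Gy, 24 h (0.04) and lowest for knockout cells at 0 Gy, 24 h (-0.06).

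The third question was what irradiation and time did. No respiratory chain gene was called after 2 Gy in either line, at 4 h or at 24 h, in limma. Of all genes, 0.226% and 0.0678% were called in parental cells at 4 h and 24 h, and 0% in knockout cells at either time. An unadjusted p below 0.05 was seen for 9 of 73 in parental cells at 4 h (6.69% of all genes), 5 in parental cells at 24 h (6.93%), 0 in knockout cells at 4 h (3.30%) and 3 in knockout cells at 24 h (4.16%). In parental cells at 4 h the smallest p was that of COX7C of complex IV, named after its values were seen (-0.27, SE 0.09, adjusted p = 0.48), and the 73 differences ran from -0.27 to 0.22. In knockout cells at 4 h they ran from -0.28 to 0.16.

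Between 4 h and 24 h, again, 0 of 73 passed in either line at either dose. Of all genes, 0% were called in either line at 0 Gy, 0.695% in parental cells at 2 Gy and 0.0452% in knockout cells at 2 Gy. An unadjusted p below 0.05 was seen for 5 of 73 in parental cells at 0 Gy (4.69% of all genes), 3 in parental cells at 2 Gy (8.80%), 17 in knockout cells at 0 Gy (6.87%) and 0 in knockout cells at 2 Gy (7.94%). In knockout cells at 0 Gy, 57 of 73 differences were below 0 (78.1%, against 47% of all genes). Their median was -0.07, from -0.33 to 0.29. NDUFB2 had the smallest p in limma (-0.32, SE 0.11, adjusted p = 0.55). In parental cells at 0 Gy, 52 of 73 were above 0 and 21 below (28.8%, against 50.6% of all genes), with a median of 0.05. The difference between the lines in the response to 2 Gy passed for 0 of 73 at 4 h and 0 of 73 at 24 h (background 0% at both times). An unadjusted p below 0.05 was seen for 0 of 73 at 4 h (2.61% of all genes) and 3 at 24 h (3.17%). At 4 h, 53 of 73 were below 0 (72.6%, against 50.2% of all genes), with a median of -0.04. At 24 h, 12 of 73 were below 0 (16.4%, against 51.8% of all genes), with a median of 0.07; the unirradiated 24 h arrays described above enter this difference too. These last differences had a median 95% interval of 0.26 on either side.

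The genes around each respiratory chain gene were compared next, with 10 measured genes on each side in RefSeq order (GRCh38.p14). As a background for the counts of neighbours, 15.8% of all genes were called higher and 14.6% lower in the averaged line difference. NDUFB9 is on chromosome 8, where 10 of its 20 neighbours were higher and 3 lower, with a median of 0.28. The genes directly beside it, RNF139 (1.53) and MTSS1 (1.44), were higher by more than NDUFB9 itself, as were TYW2 (1.41) and TMEM65 (1.24). Farther along, MYC was lower (-1.12). ATP5MC2 is on chromosome 12 beside the HOXC genes, where 16 of 20 neighbours were lower, with a median of -0.29 beside its own -0.22. HOXC10 (-0.51) and HOXC8 (-0.71), developmental transcription factors, were among them.

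ATP5F1B, also on chromosome 12, and ATP5PB, on chromosome 1, had neighbours with medians of -0.20 and -0.13, close to their own differences of -0.16 and -0.12, with 9 and 8 of 20 lower. ATP5MC1, on chromosome 17 beside the HOXB genes, differed by -0.46 where its neighbours had a median of -0.13 and 7 of 20 were lower. NDUFV3 (neighbours -0.08), NDUFA2 (0.02) and UQCR10 (0.02) were higher, by 0.29, 0.31 and 0.24, among neighbours whose medians were within 0.1 of 0. NDUFB8, on chromosome 10, went the other way: 13 of its 20 neighbours were higher, with a median of 0.30, and its own difference was -0.08. Of 11 respiratory chain genes with a difference of at least 0.2 in size, 8 had a neighbour median of the same sign. For 2 of them, NDUFB9 and ATP5MC2, that median was at least 0.2 in size. The share over all genes is not given for these counts, so they are no result about these genes in particular.

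**Figure D5:**
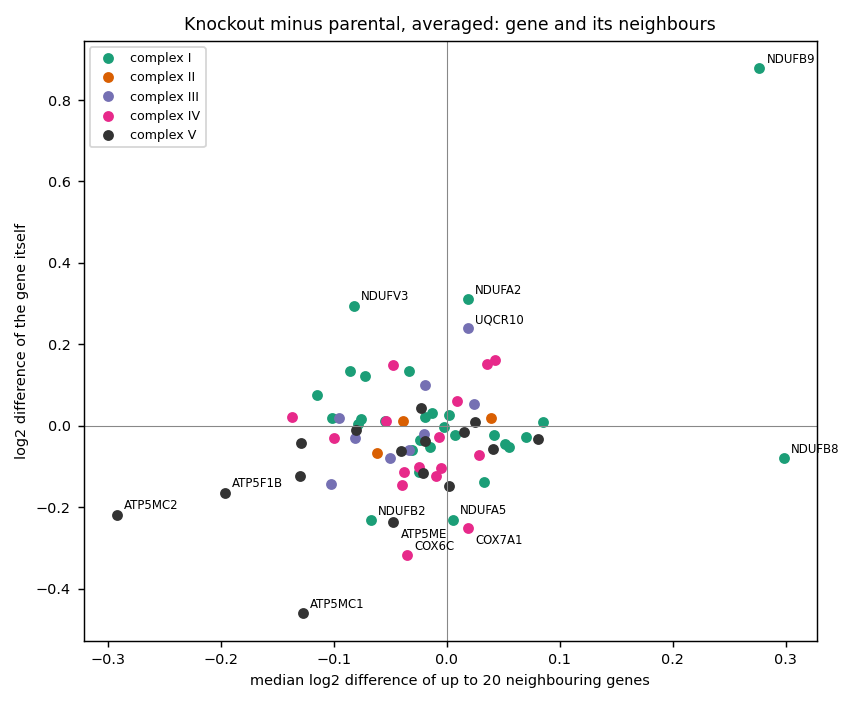
Averaged line difference of each respiratory chain gene (log2, vertical) against the median difference of up to 20 neighbouring genes (log2, horizontal), coloured by complex. NDUFB9 (0.88 against 0.28) and ATP5MC2 (-0.22 against -0.29) lie beside neighbours that differ the same way, and NDUFB8 (-0.08 against 0.30) does not.

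Genes that serve the chain without being subunits were counted in the same way. The examples given were chosen after their values were seen, and several are the extremes of their lists. No test of a list was made, and neighbouring genes were compared for the subunits only. Of 43 measured assembly factors (46 listed), 5 were higher and 11 lower in the averaged line difference (37.2% called, against 30.4% of all genes). NDUFAF5, which modifies a core subunit of complex I, differed by -0.74 (SE 0.06), and NUBPL, which is needed for the iron-sulphur clusters of complex I, by -0.59 (SE 0.12). COX11, which delivers copper to complex IV, differed by -0.35 (SE 0.05). UQCC2, needed for cytochrome b of complex III, and COX15, which makes haem A for complex IV, were higher by 0.55 (SE 0.07) and 0.43 (SE 0.05).

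Of 10 measured citric acid cycle genes, 3 were higher and 3 lower, against 30.4% of all genes called either way. IDH3B, a subunit of the NAD-linked isocitrate dehydrogenase, differed by -0.78 (SE 0.06) and SUCLA2, of succinyl-CoA ligase, by 0.22 (SE 0.05). Of 17 measured genes for electron carriers and exchange across the membranes, 2 were higher and 4 lower (35.3% called, against the same 30.4%). COQ2 and COQ3, enzymes of ubiquinone synthesis, differed by -0.45 (SE 0.06) and -0.81 (SE 0.11); COQ3 was above background on 12 parental and 5 knockout arrays. CYCS, cytochrome c, differed by -0.11 (SE 0.04), and VDAC2, a pore of the outer membrane, by 0.24 (SE 0.03). Each adjusted p was below 0.05.

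Of 12 measured regulators of mitochondrial genes, 2 were called higher and 1 lower, which is no more than the background of 30.4%. TFAM, which binds mitochondrial DNA and takes part in its transcription, was higher by 0.19 (SE 0.04, adjusted p = 1.34e-04) and PPRC1, a coactivator, by 0.20 (SE 0.04, adjusted p = 4.64e-04). The lower call was that of PPARGC1A, the coactivator PGC-1alpha, which was above background on 4 of 12 parental and 0 of 12 knockout arrays, so no size is given for its difference. The median over the 12 was -0.0048, beside -0.02 for all genes.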

How the data were processed

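RNA from 24 samples was hybridised to Affymetrix whole-transcript arrays. The deposited table holds 1 log2 signal per probe set and array, made by the authors with RMA and Affymetrix Expression Console 1.1, per the submitters' processing notes; the genome build and which arrays were normalized together are not given in the sources used here. Of 24351 probe sets, 17709 had 1 gene symbol; for 20 genes with several, the one with the highest mean was kept, leaving 17687 genes, with no filter on dim genes. Arrays carry no read depth, so their number limits precision.

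Group means were fitted in R 4.3.3 with limma 3.58.1 (lmFit, eBayes with an intensity trend) over all 24 arrays, for 15 comparisons and 2 added after the data were seen. Genes were called when their p, adjusted over all genes by Benjamini-Hochberg, was below 0.05. The script was tested on simulated data. Groups came from sample titles. Members and lists were chosen with earlier results of these data known. Named genes are, per complex, up to 3 of the largest rises and falls among called genes, those called in all 4 line differences, the SDH genes, CYC1 and tissue isoforms; where a complex had no call, the largest difference; exceptions are stated. Same-numbered replicates deviated together (every correlation above 0.1) in 4 of 12 comparisons of 2 groups: the line differences at 0 Gy, 4 h and 2 Gy, 24 h, and irradiation of knockout cells at both times; there the pairing is inferred from the values, since the titles give only a number. Alternatives were a replicate block, no intensity trend, array weights, a background filter, another probe set, centred arrays, only the compared arrays, and leaving out arrays.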

Additional observations from a re-analysis of the deposited data

How the results depend on the processing

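The count of called respiratory chain genes depended on the processing in the single conditions more than in the average. At 0 Gy, 4 h, 8 calls became 14 with the replicate block and 4 without the intensity trend; at 2 Gy, 4 h, 7 became 4 with only the compared arrays, and the median became -0.058 without both arrays of narrow signal range; at 2 Gy, 24 h, 4 became 10 with the replicate block. Leaving out 1 array gave 5 to 9 calls at 0 Gy, 4 h, 6 to 10 at 0 Gy, 24 h and 4 to 7 at 2 Gy, 4 h. It moved the 2 Gy, 4 h median over -0.058 to 0.0016 and the median change with time in unirradiated knockout cells over -0.118 to -0.053. The cause was not tested. Under the block no called gene lost its call, the averaged count was 26, and irradiation and time still gave 0 calls in each line. No called gene changed sign in any setting. The calls lost, over the single-condition and averaged line differences, numbered 14 without the trend, 5 with centred arrays, 3 without the narrow arrays and 2 with array weights. With only the compared arrays, 4 of the 29 calls in single conditions were lost. No member has another probe set, so that alternative changed nothing. Differences under about 0.18 in a single condition are mostly beyond the precision of 3 arrays a group.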

Other observations

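The genes for proteins of the mitochondrial ribosome, which translates the subunits encoded in mitochondrial DNA, were also measured, 74 of them. In the averaged line difference 14 were higher and 17 lower, 41.9% of them against 30.4% of all genes, with a median of 0.02. MRPL13 stood far from the rest at 1.59 (SE 0.04, adjusted p = 1.45e-24 in limma), followed by MRPL18 (0.48, SE 0.05). The lowest were MRPS26 (-0.39, SE 0.09) and MRPL27 (-0.34, SE 0.05). The genes around the ribosomal genes were not compared. At 0 Gy, 24 h, 46 of 74 differences were below 0 (62.2%, against 50.7% of all genes). At 0 Gy, 4 h, 28 were below 0 (37.8%, against 53.3% of all genes). In the change of the line difference between these times, 58 of 74 were below 0 (78.4%, against 47.2% of all genes). Their median was -0.11, beside 62 of 73 and -0.10 for the respiratory chain genes on the same arrays. Of the ribosomal genes 0 passed at 0 Gy, and 5 had an unadjusted p below 0.05 in limma (3.50% of all genes). At 2 Gy the 2 sets were less alike. In the same change, 51 of 74 ribosomal genes were below 0 (68.9%, median -0.06), beside 39 of 73 respiratory chain genes (53.4%, median -0.0039). In irradiated knockout cells, 66 of 74 ribosomal genes were lower at 24 h than at 4 h (89.2%), beside 41 of 73 respiratory chain genes (56.2%).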
